A study of Mus musculus with 9 samples.

Results

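Hmox1, Hspa1a and Hspa1b, 3 of the 19769 genes in the RNA-seq table, were chosen by their measured values: each had a lower spike-in-normalized level in high-MYC than in low-MYC mouse embryonic fibroblasts (MEFs). These values are therefore given as a description, and no p-value is given for them. The RNA came from primary MEFs of Myc-Egfp+/+ embryos, in which GFP is fused to MYC at the endogenous locus. MEFs are grown from mid-gestation embryo bodies after the head and viscera are removed, and so are a mixed culture. Cells of both groups had been exposed for 6 h to the proteasome inhibitor MG-132 at 20 µM and were then sorted into low-MYC and high-MYC cells by GFP. Sorted cells were kept in culture overnight before RNA was taken, so the levels are not those directly after the inhibitor. Each group was sequenced as 2 technical replicates, so the spread between replicates says nothing about independent sorts or embryos, and cells without MG-132 were not analysed here. ERCC transcripts, synthetic RNAs added in proportion to cell count, set the scale of the deposited values, called spike-in-normalized FPK (fragments per kilobase of transcript).

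Hmox1 encodes heme oxygenase 1, the inducible enzyme that opens heme to biliverdin, carbon monoxide and iron. Its transcription is induced by NRF2, a factor that KEAP1 marks for proteasomal degradation, and is held down by BACH1, which heme removes from DNA. Hspa1a and Hspa1b encode almost the same cytosolic HSP70, a chaperone that binds unfolded proteins, and are induced through HSF1 when such proteins accumulate. Proteasome inhibitors are known to induce all of these genes, and both groups had been exposed to one.

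Hmox1 lies on the plus strand of chromosome 8 at chr8:75093621-75100589 (mm10), with 5 exons of 1569 bases in all, 867 of them coding. Hspa1a (chr17:34969190-34972156) and Hspa1b (chr17:34956436-34959238) lie on the minus strand of chromosome 17, their starts 12918 bp apart. Each has a single exon without introns, of 2967 and 2803 bases. The 250 bases before the starts of this gene pair are shown so that the promoters of the pair can be compared. They are at chr17:34972157-34972406 for Hspa1a and chr17:34959239-34959488 for Hspa1b (RefSeq, GRCm38.p6, minus strand, read 5′ to 3′ toward the start). RefSeq promoters were matched for 2 of the 3 genes. Capitals mark the match to GAANNTTC, a pair of inverted heat shock half-sites of the kind HSF1 binds.
Hspa1a: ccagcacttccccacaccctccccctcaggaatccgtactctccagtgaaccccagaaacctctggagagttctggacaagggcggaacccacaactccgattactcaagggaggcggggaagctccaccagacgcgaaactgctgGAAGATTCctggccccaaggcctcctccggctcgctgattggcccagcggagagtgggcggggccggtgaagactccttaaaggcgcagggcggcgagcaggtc
Hspa1b: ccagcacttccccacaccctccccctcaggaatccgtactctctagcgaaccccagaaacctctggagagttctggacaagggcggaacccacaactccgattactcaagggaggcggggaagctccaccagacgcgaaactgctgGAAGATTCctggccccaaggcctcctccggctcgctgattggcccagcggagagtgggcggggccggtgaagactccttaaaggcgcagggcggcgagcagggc
The 2 promoters had 247 of 250 bases in common (98.8%). Counted from 1 at the first printed base, with the Hspa1a base first, the differences were C44T, T47C and T249G, all outside the capitals. GAANNTTC, which reads the same on both strands, occurred 1 time in each promoter. Either GAANNTTC or TTCNNGAA, the opposite arrangement of the half-sites, occurred in 4212 of 32817 promoters of the same length (12.8%). The share with GAANNTTC alone was not counted. CCAAT occurred 1 time in each (as ATTGG on the printed strand) and in 33.8% of all promoters, and the GC box GGGCGG occurred 3 times in each and in 32.7%. The reverse complements ATTGG and CCGCCC were counted as matches, and no matches of the 3 motifs overlapped in these promoters. A match describes the letters and not a bound site.

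Of the 3 genes, Hmox1 was the most highly expressed. Its spike-in-normalized FPK was 25.3 in both low-MYC replicates and 18.5 in both high-MYC replicates. The groups did not overlap, and the means were 25.3 ± 0.0386 (SD, n = 2) and 18.5 ± 0.00976 (SD, n = 2), a ratio of 0.730. Hspa1a had 2.23 in both low-MYC replicates, and 1.59 and 1.80 in the high-MYC replicates. The higher of the high-MYC values was below both low-MYC values, and the ratio of the means, 2.23 ± 0.00578 and 1.70 ± 0.148 (SD, n = 2 each), was 0.762. Hspa1b had 5.45 and 5.63 in the low-MYC replicates and 4.26 and 4.77 in the high-MYC replicates. Its groups did not overlap either, and its means of 5.54 ± 0.128 and 4.52 ± 0.356 (SD, n = 2 each) gave the ratio closest to 1 of the 3 genes, 0.815. The 3 genes were chosen for being lower in this contrast, so the lack of overlap between groups is no separate result. In bulk RNA, fewer cells that express a gene and less of its RNA in each cell cannot be told apart.

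**Figure D1:**
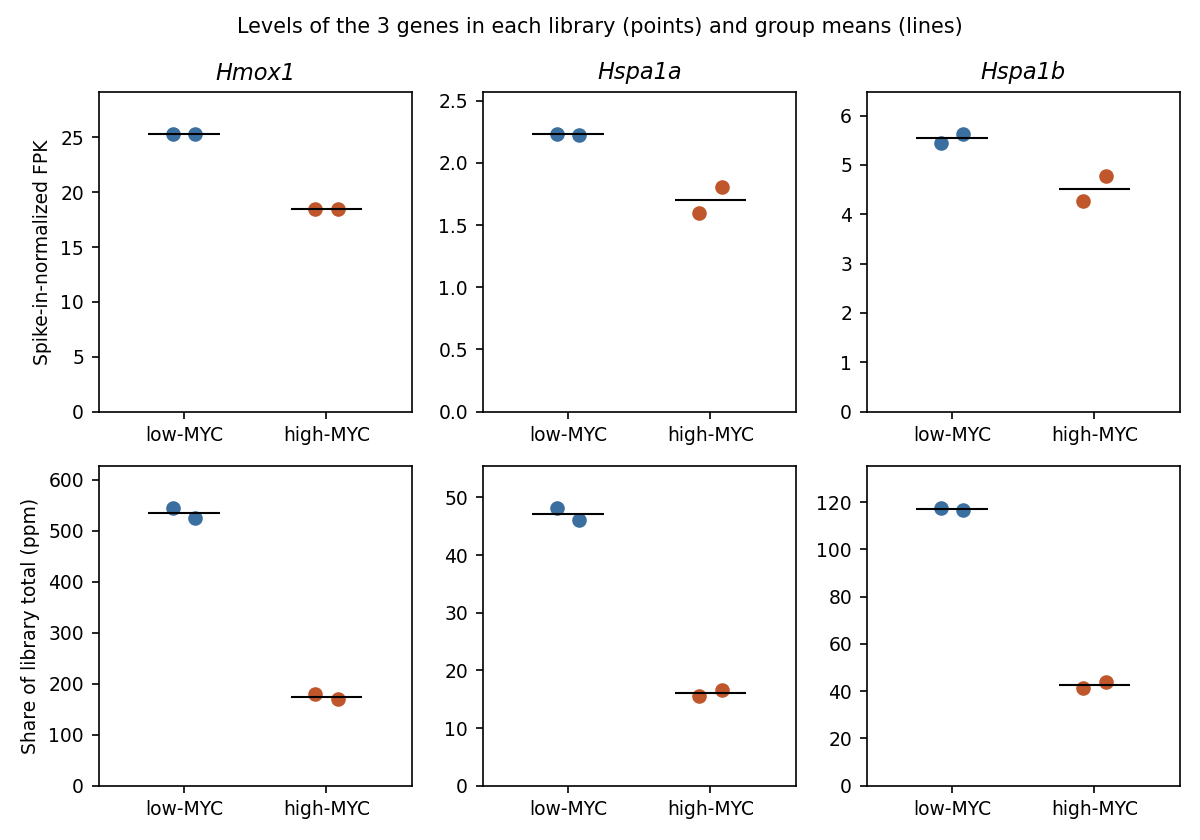
Points show each library and lines the mean of 2 technical replicates; the upper row gives spike-in-normalized FPK and the lower row the share of the library total in ppm (parts in 1000000), with all axes starting at 0. Hmox1 went from 25.3 to 18.5 on the upper scale and from 535 to 174 on the lower one. In every panel both high-MYC points lie below both low-MYC points, which is no separate result, since the genes were chosen for being lower.

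These levels were set against a sum over all genes that was larger, relative to the spike-in, in high-MYC cells. An error in the spike-in added per cell would shift all genes of a library together, and this was not tested. Summed over all genes, normalized FPK came to 46321 and 48291 for low-MYC cells, and 102853 and 109090 for high-MYC cells. Expressed as a share of these sums, in ppm (parts in 1000000), the difference for the 3 genes was wider than on the spike-in scale. Hmox1 took 545 and 524 ppm of the low-MYC totals and 180 and 169 ppm of the high-MYC totals. The mean share was 3.07-fold lower in high-MYC cells (535 ± 14.9 against 174 ± 7.35 ppm, SD, n = 2 each). Hspa1a took 48.2 and 46.1 ppm of the low-MYC totals and 15.5 and 16.5 ppm of the high-MYC totals, a mean share 2.94-fold lower. Hspa1b took 118 and 117 ppm in low-MYC cells and 41.5 and 43.7 ppm in high-MYC cells, a mean share 2.75-fold lower. No replicate of one group reached the other group for any of the 3 genes, which is no separate result, since this contrast chose them. Among all genes ranked by normalized FPK, which is per length, Hmox1 stood at place 244 and 251 in the low-MYC replicates and at 671 and 714 in the high-MYC replicates. Hspa1b went from places 987 and 973 to 2519 and 2376, and Hspa1a from 2203 and 2242 to 5110 and 4924.

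On the scale log2(normalized FPK + 0.1), the difference between high-MYC and low-MYC cells was -0.45 for Hmox1, -0.38 for Hspa1a and -0.29 for Hspa1b, where the 11870 genes whose mean reached 0.1 had a median of 1.03 and 90% of them lay between 0.59 and 1.35. Of these genes, 11530 (97.1%) were higher in high-MYC cells and 3 (0.0253%) were lower by limma with Benjamini-Hochberg adjustment at a threshold of 0.01. The lower ones are the 3 genes, which were chosen from this same comparison, so nothing is read from the call. On the share scale, where each library was divided by its own sum, the log2 differences were -1.61 for Hmox1, -1.48 for Hspa1a and -1.43 for Hspa1b. They were the 3 lowest values of all genes tested, against a median of 0.01, and 13 genes in all lay below -1. By the same test, 210 genes (1.77%) were higher and 61 (0.514%) were lower on this scale. The 61 include the 3 genes, and this too is no separate result, since both scales use the contrast that chose them.

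**Figure D2:**
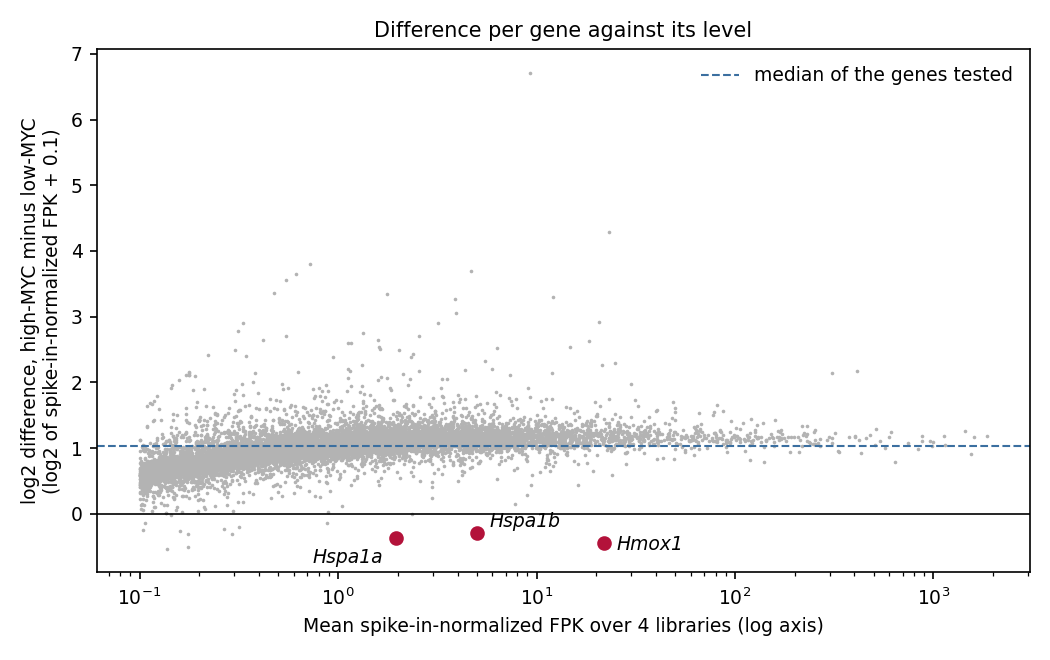
Each grey point is 1 of 11870 genes, with its mean spike-in-normalized FPK over the 4 libraries on a log axis and its log2 difference between high-MYC and low-MYC cells; red points are the 3 genes, the solid line is 0 and the dashed line the median, 1.03. The 3 genes lie between -0.45 and -0.29, while the other 12 points below 0 have a mean under 1 with the exception of Lce1h, at -0.01.

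The 3 genes are those called lower by the adjusted p of this comparison, and not those with the lowest differences. Outside the 3 genes, 12 had a log2 difference below 0 on the spike-in scale, and none of them passed. The pseudogene Gm715 was nearest to the threshold (limma with Benjamini-Hochberg adjustment, adjusted p = 0.011), with a difference of -0.26 and normalized FPK of 0.189 and 0.179 in low-MYC and 0.129 and 0.146 in high-MYC cells. Hoxb13 had the lowest difference of all, -0.53, with 0.200 and 0.159 in low-MYC and 0.128 and 0.0635 in high-MYC cells. Gm7389 (-0.50), Gm25541 (-0.31) and Lce1l (-0.31) were also below the -0.29 of Hspa1b, with at most 0.432 in any library.

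The pair of Hspa1 genes is hard to separate by sequence. Where a base of the Hspa1a transcript was aligned with a base of Hspa1b, 93.6% were identical (2528 identical and 173 different, gaps left out). Of the 2893 windows of 75 bases in Hspa1a, 1524 (52.7%) occurred unaltered in Hspa1b. Reads from such windows are divided between the copies by the quantification, so the split between them is uncertain while their sum is less so. The sum of both genes was 7.68 and 7.86 normalized FPK in the low-MYC replicates and 5.86 and 6.57 in the high-MYC replicates. The ratio of the means was 0.800 on the spike-in scale, and 0.357 for the shares (164 against 58.6 ppm). Hspa1b exceeded Hspa1a in every library, by ratios of 2.44 and 2.53 in low-MYC and 2.68 and 2.64 in high-MYC cells. Hmox1 was 3.29 and 3.22 times the sum of the pair in low-MYC cells, and 3.15 and 2.81 times in high-MYC cells.

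The pattern over the 4 libraries was compared between genes by the root mean square (RMS) distance of their log2 values, each centred on its own mean. Hspa1a and Hspa1b were 0.0462 apart, Hmox1 and Hspa1a 0.0707, and Hmox1 and Hspa1b 0.0990. Outside the 3 genes, Gm715 was the nearest to each of them, at 0.106 from Hmox1, 0.0664 from Hspa1a and 0.0431 from Hspa1b. It had at most 0.189 normalized FPK. Igfbp5, which encodes a secreted protein that binds insulin-like growth factors, was next nearest to Hspa1a (0.120) and Hspa1b (0.0874). Its normalized FPK was 0.958 and 0.903 in low-MYC and 0.775 and 0.897 in high-MYC cells. Igfbp5 and the chemokine gene Ccl17 were both among the 5 nearest to all 3 genes, with Igfbp5 at 0.171 from Hmox1. The others nearest were Hoxb13 and Ifi27l2b for Hmox1, and Lce1h and Dusp2 for Hspa1a and for Hspa1b. With 4 libraries in 2 groups, such a distance mainly reflects the difference between the groups.

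The other HSP70 genes did not share the direction of Hspa1a and Hspa1b on the spike-in scale. All 11 members of the family tested outside the pair were higher in high-MYC cells, against a background of 97.1%. Hspa8, which encodes the constitutive HSC70, had 76.5 and 78.6 normalized FPK in low-MYC and 153 and 166 in high-MYC cells, without overlap, and rose by 1.04 on the log2 scale (limma with Benjamini-Hochberg adjustment, adjusted p = 1.64e-05). Hspa5, the chaperone BiP of the endoplasmic reticulum, rose by 1.39 (limma with Benjamini-Hochberg adjustment, adjusted p = 1.37e-05), from 59.1 and 62.9 to 151 and 168 normalized FPK. As shares of the total, none of the 11 passed the test in either direction, against 1.77% of all genes higher and 0.514% lower. Their median log2 difference was -0.02, and they ranged from -0.15 for the mitochondrial Hspa9 to 0.28 for Hspa12b. Hspa1l, a testis-type HSP70 gene whose start lies 547 bp from that of Hspa1a on the other strand, had 0.0257 and 0.0479 normalized FPK in low-MYC and 0.0945 and 0.0908 in high-MYC cells, too low for the test.

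Among 23 other heat shock genes known to respond to HSF1, all 23 were higher in high-MYC cells on the spike-in scale, as were 97.1% of all genes. None passed the test on the share scale, against 1.77% of all genes higher and 0.514% lower. Their median on that scale was -0.09 and 21 of 23 were below 0, where 47.0% of all genes were. Among the lowest were the small heat shock protein gene Hspb1 (-0.31), the cochaperone gene Dnaja4 (-0.21) and Ier5 (-0.17), and the highest were Bag3 (0.03), which encodes a partner of HSP70, and the ubiquitin gene Ubb (0.03). Hspb1 had 30.4 and 31.2 normalized FPK in low-MYC and 56.5 and 54.6 in high-MYC cells. Over both heat shock lists, 34 of 36 genes were tested, and with the share scale 0 were called. At an unadjusted p under 0.05 (limma), 14 of these 34 were lower and 2 were higher, where 12.9% and 18.7% of all genes tested were.

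The 21 listed NRF2 target genes, which serve glutathione, thioredoxin and NADPH metabolism, gave a more mixed picture. On the spike-in scale all 20 tested were higher in high-MYC cells, against 97.1% of all genes. On the share scale 4 were lower and 1 was higher, against 0.514% and 1.77% of all genes. Sqstm1, which encodes the autophagy receptor p62, had 13.6 and 13.7 normalized FPK in low-MYC and 18.1 and 19.0 in high-MYC cells. Its share fell by 0.72 on the log2 scale (limma with Benjamini-Hochberg adjustment, adjusted p = 0.00305) while its amount per spike-in rose by 0.44. Srxn1, which encodes sulfiredoxin, fell by 0.57 as a share (limma with Benjamini-Hochberg adjustment, adjusted p = 0.00385). Txnrd1, the gene of thioredoxin reductase 1, had a share difference of -0.37, and Gclm, which encodes a subunit of glutamate-cysteine ligase, one of -0.35, with adjusted p = 0.00793 and 0.00956 (limma with Benjamini-Hochberg adjustment). Gsta4, a glutathione transferase gene, rose by 0.53 as a share (limma with Benjamini-Hochberg adjustment, adjusted p = 0.0093), from a low level of 0.125 and 0.140 normalized FPK. The next highest shares, those of Prdx1 (0.39), Ephx1 (0.30) and G6pdx (0.21), did not pass. The median of the list was -0.13, against 0.01 for all genes. These calls were lost with a replicate block and when any single library was left out. The Hmox1 share difference of -1.61 was the lowest of all genes tested, so it lay outside the range of any list.

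Heme and iron genes surround the reaction that heme oxygenase 1 carries out. Of 15, 14 were tested and all 14 were higher in high-MYC cells on the spike-in scale (97.1% of all genes). On the share scale none passed, against 1.77% of all genes higher and 0.514% lower, and the median was -0.03. The constitutive Hmox2 had 0.360 and 0.369 normalized FPK in low-MYC and 0.843 and 0.870 in high-MYC cells, a share difference of 0.06. Hmox1 thus stood at a higher level than Hmox2 in every library on this scale, which is per length. The lowest shares were those of the transferrin receptor gene Tfrc (-0.44), the metallothionein gene Mt1 (-0.33), the heme exporter gene Flvcr1 (-0.27) and Slc48a1 (-0.19), which encodes a heme transporter. The biliverdin reductase gene Blvrb was at 0.18, and the ferritin heavy chain gene Fth1 at 0.07. The iron exporter gene Slc40a1 was too low for the test.

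**Figure D3:**
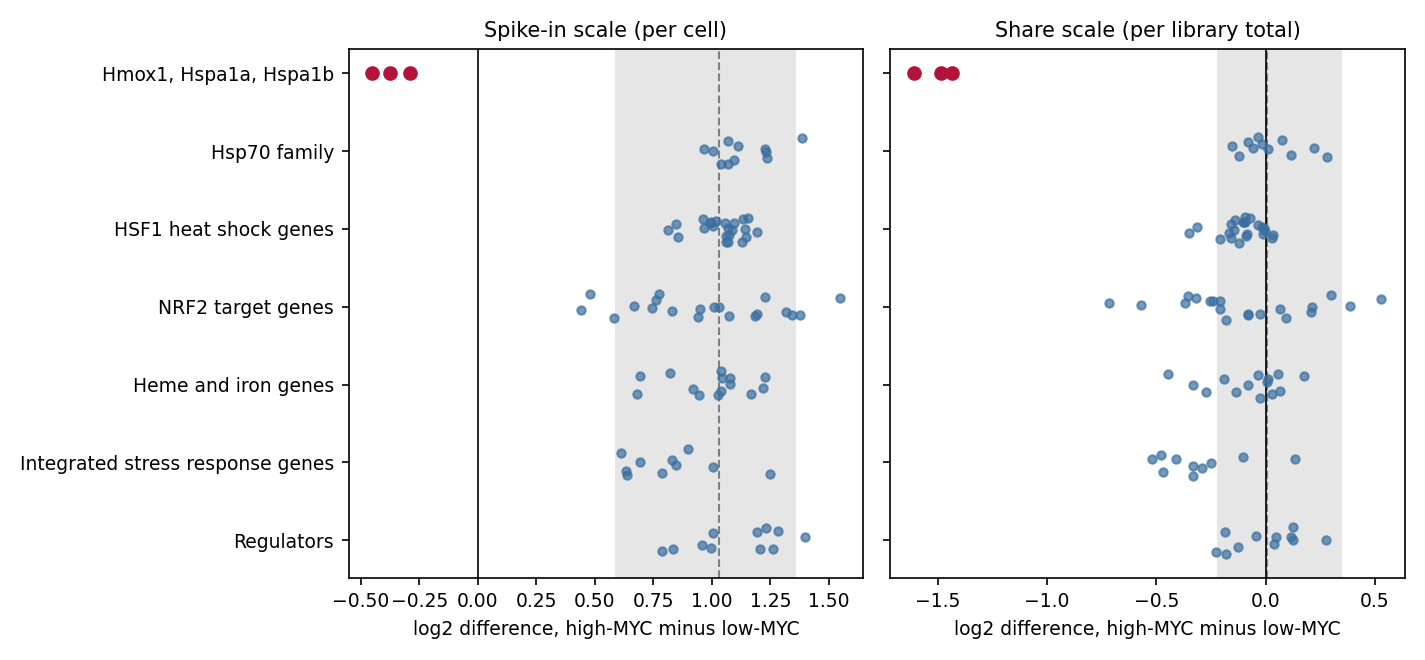
Points are genes with a mean of at least 0.1, plotted by the log2 difference between high-MYC and low-MYC cells on the spike-in scale (left) and the share scale (right); red points are the 3 genes, the grey band holds the middle 90% of all genes tested and the dashed line is their median. Hmox1, Hspa1a and Hspa1b lie between -0.45 and -0.29 on the left and between -1.61 and -1.43 on the right. They were chosen for being lower, so their distance from the listed genes is no separate result.

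The mRNAs of the factors that control the 3 genes were also measured. Of 12 regulators, 11 were tested, all higher in high-MYC cells on the spike-in scale, as were 97.1% of all genes. None was called on the share scale, against 1.77% of all genes higher and 0.514% lower. Hsf1 had 0.587 and 0.572 normalized FPK in low-MYC and 1.23 and 1.28 in high-MYC cells, a share difference of -0.04. Bach1, the repressor of Hmox1, had 0.710 and 0.738 in low-MYC and 1.32 and 1.42 in high-MYC cells, with the lowest share difference of the regulators, -0.22. Nfe2l2, which encodes NRF2, had 1.73 in both low-MYC replicates and 4.58 and 4.88 in the high-MYC replicates, with the highest share difference, 0.28. The other share differences were -0.19 for Hsf2, -0.18 for Mafg, -0.12 for Mafk, 0.04 for the HSF1-binding Hsbp1, 0.05 for Nfe2l1, 0.12 for Keap1, 0.13 for Maff and 0.13 for the HSP70-associated ubiquitin ligase gene Stub1. Bach2 was too low for the test. NRF2 and HSF1 are controlled largely as proteins, which were not measured in these libraries.

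The tested neighbours of the 3 genes were higher in high-MYC cells on the spike-in scale, as were 97.1% of all genes. The only gene of the table that starts within 50 kb of Hmox1 was Mcm5, a subunit of the replicative helicase, 15948 bp downstream. It had 2.06 and 2.01 normalized FPK in low-MYC and 5.40 and 5.33 in high-MYC cells, a log2 difference of 1.35 on the spike-in scale and 0.23 as a share (limma with Benjamini-Hochberg adjustment, adjusted p = 0.0759). Within 50 kb of Hspa1a or Hspa1b started 7 other genes, of which Neu1, 1110038B12Rik, Lsm2 and Vars were tested. They lay between 0.97 and 1.20 on the spike-in scale and between -0.13 and 0.07 as shares. None was called on the share scale, where 1.77% of all genes were higher and 0.514% lower. Gm10501, Vwa7 and Hspa1l were too low for the test.

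Myc mRNA was 9.81 and 9.86 normalized FPK in low-MYC and 20.3 and 20.5 in high-MYC cells. Its log2 difference on the spike-in scale was 1.04 (limma with Benjamini-Hochberg adjustment, adjusted p = 1.04e-05). This was close to the median of all genes, 1.03, so Myc mRNA rose about as much as that of a typical gene. Its share difference was -0.11 (limma with Benjamini-Hochberg adjustment, adjusted p = 0.154). Fibroblast markers were present in every library, with a summed normalized FPK of 411 and 417 in low-MYC and 1007 and 1036 in high-MYC cells, and 4 of 15 were higher as shares, against 1.77% of all genes. Macrophage markers moved with the groups. Of 15, 10 were tested and 9 were higher as shares, against the same 1.77%, and their summed normalized FPK was 0.947 and 1.30 in low-MYC and 29.995 and 31.3 in high-MYC cells, with C1qa, Tyrobp and Adgre1 at 0 in low-MYC replicate 1. The part of these cells in the differences of Hmox1, Hspa1a and Hspa1b was not tested.

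Accessible chromatin at the 3 genes was read from the TACh-seq table, which lists reads from chromatin cut by the nuclease Cyanase in MEFs. The labels give this table to wild-type MEFs and to MEFs with Fubp1 knockout and Fubp2 knockdown, while its own name refers to a wild-type library and to peaks, and no column names a library. No comparison between them was therefore made, and these reads bear on neither low-MYC nor high-MYC cells. The reads of the table fell into 26811 runs, a run being reads at most 400 bp apart, which covered 77.5 Mb and held at least 4 reads each, with a median of 140. It thus lists reads of enriched regions, and 0 reads at a place say only that no such region was listed there. Within 1 kb of the start, Hmox1 had 134 reads (95% Poisson interval 112 to 159, counting error only), Hspa1a 97 (78.7 to 118) and Hspa1b 162 (138 to 189). Over the 11854 starts of tested genes the median was 129 reads, with quartiles of 52 and 207, and 23.2% of the starts had none. Hmox1 had more reads than 51.7% of these starts, Hspa1a than 35.9% and Hspa1b than 62.1%. The 3 starts were thus within the middle range, below the median of 249 over the 34 other heat shock genes, while the median of the 34 other NRF2 and heme genes was 133.5. Macrophage marker starts had a median of 0 reads and at most 70.

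At Hmox1 the reads fell into separate runs. Counted from the start, with upstream negative, the run at the start reached from -1036 to 742 bp. A run of 189 reads lay between -5090 and -2654 bp (chr8:75088531-75090967), and one of 120 reads between -10694 and -9272 bp (chr8:75082927-75084349). Neither upstream run overlapped a gene of the table, and the nearer one held more reads than the run at the start, over 2437 bp against 1779 bp. Mouse Hmox1 is known to be controlled by a pair of upstream enhancers bound by NRF2 and BACH1, and whether these runs coincide with them was not tested.

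At Hspa1a all 97 reads lay upstream, between -713 and -183 bp from the start, in a run that overlapped Hspa1l, and 0 lay in the 2967 bp of the gene. At Hspa1b, 154 reads lay upstream and 8 downstream within 1 kb, in a run of 199 reads from -2411 to 180 bp, and 14 reads lay in the gene. The lowest mapping score in the table was 11, above the scores that Bowtie2 gives to reads placed equally well at several sites. Of the windows of 75 bases within 1 kb downstream of the Hspa1a start, 80.9% occurred also at Hspa1b, against 13.7% upstream. Low numbers of reads downstream of these starts thus do not show that the chromatin there was closed. Between T47C and T249G the printed promoters are identical, so the lack of reads just upstream of the Hspa1a start does not show it either. The share of reads with a score of at least 30 was 97.0% at Hmox1, 94.8% at Hspa1a and 87.7% at Hspa1b, against a median of 98.9% over all starts.

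**Figure D4:**
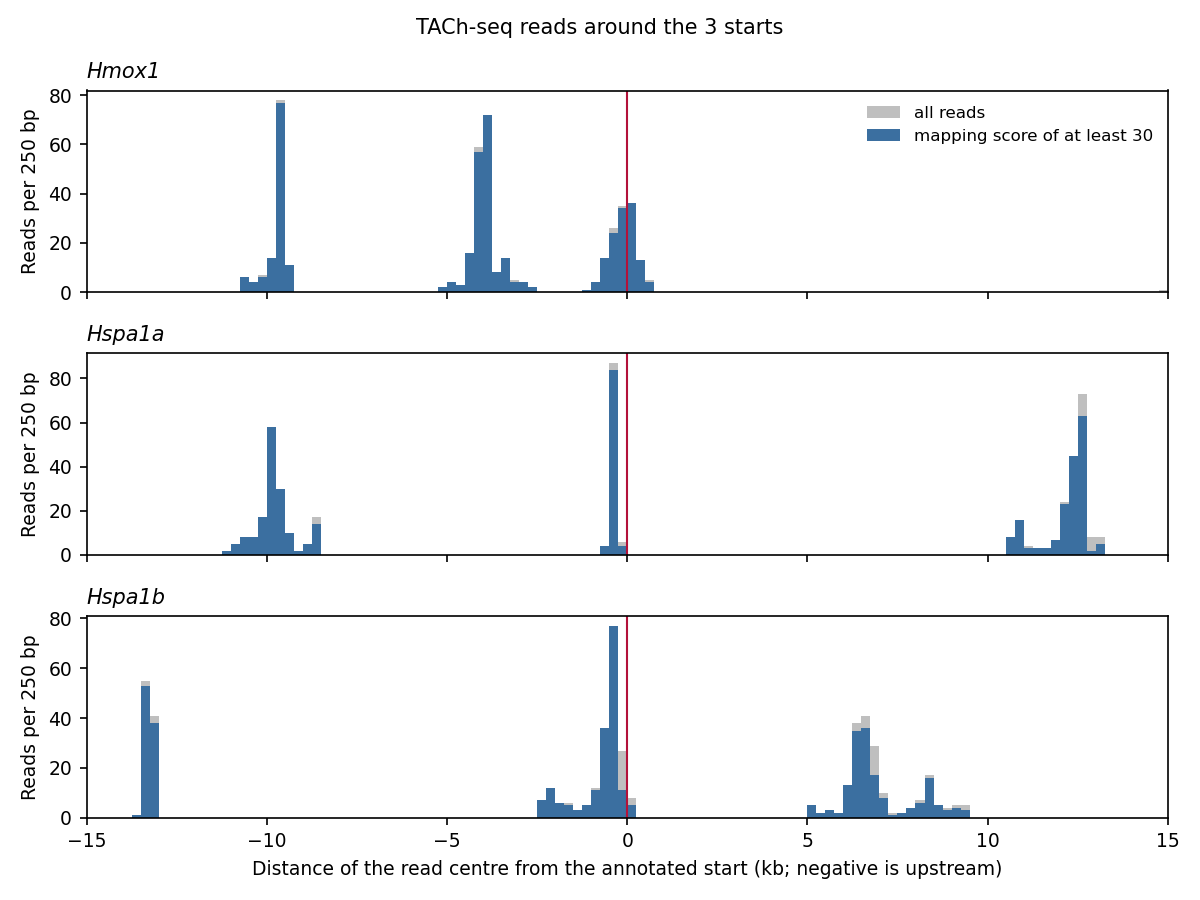
Bars give TACh-seq reads in bins of 250 bp within 15 kb of each start, by distance in kb along the gene's strand, with reads of a mapping score of at least 30 in blue, all reads in grey and the start as a red line. Hmox1 shows 2 upstream runs, of 189 and 120 reads, beside the 134 reads around its start, and Hspa1a shows 97 reads that end upstream of its start.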

How the data were processed

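RNA was measured in low-MYC and high-MYC MEFs (2 technical replicates each) and accessible chromatin by TACh-seq in 4 samples. For RNA-seq, the authors trimmed reads, aligned them to mm10 with TopHat, quantified transcripts with the expectation-maximization method of Partek, divided by transcript length, and then by a spike-in score. The deposited signal values, normalized FPK, are thus relative to cell number. Counts were not used, so read depth is unknown and only the sums per library are given. TACh-seq reads had been placed on mm10 by the authors, using Bowtie2, and the deposited table holds 4881417 positions of 20 to 82 bp with a mapping score per read from 11 to 42. Tool versions are not given in the sources used here. The FUBP1 peak list was not used.

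The 3 genes, the gene lists and the tests were chosen with earlier results of these data known. Genes whose mean over the 4 libraries reached 0.1 were compared in R 4.3.3 by limma 3.58.1 (lmFit and eBayes, trend on) on log2(value + 0.1), which understates changes of low genes, with Benjamini-Hochberg adjustment over all 11870 genes tested and a threshold of 0.01. The replicates are technical, so p-values measure the spread between libraries. For the share scale each library was divided by its sum and multiplied by the mean sum. Named genes are the 3 genes, the regulators, the 4 highest and 4 lowest shares of each list, the 5 genes nearest in pattern, the 5 lowest differences outside the 3, genes starting within 50 kb, and Myc. The value of 1 gene under this rule is not reported here. The macrophage markers at 0 were named after their values were seen.

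Reads that overlapped the window of 1 kb on either side of a GENCODE M21 start were counted, and called upstream or downstream by their centre. Gene ends in the deposited table lay 1 base past the annotation for 19464 of 19590 genes matched by name and were corrected. Motifs were searched in RefSeq promoters of 250 bases. The limma procedure was tested on simulated data. Alternatives covered the pseudocount, the filter on low values, the trend, the scaling, the threshold, the replicate block, left-out libraries, the window and the mapping score. The gaps of 200 and 800 bp between runs of reads were added after seeing the data. Python 3.11.15 with pandas 2.3.3, numpy 2.4.6, scipy 1.17.1, matplotlib 3.10.9 and Biopython 1.88 was used.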

Additional observations from a re-analysis of the deposited data

How the results depend on the processing

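Hmox1, Hspa1a and Hspa1b kept a difference below 0 on both scales under every alternative run (pseudocounts, scaling by the median for shares, and each library left out). Both high-MYC values were below both low-MYC values on each scale. Another pseudocount or a left-out library could therefore not change the sign, and only the sizes are informative. With a pseudocount of 0.01, Hmox1 was at -0.45 (spike-in scale) and Hspa1a at -1.55 (share). With a pseudocount of 1, which by construction draws low levels toward 0, Hmox1 was at -0.43 (spike-in) and -1.55 (share), Hspa1a at -0.26 and -1.05, and Hspa1b at -1.23 (share). With each library left out in turn, the share difference of Hspa1b ranged from -1.47 to -1.39, and its difference on the spike-in scale from -0.37 to -0.21. Counts on the spike-in scale, 34 heat shock and 34 NRF2 and heme genes higher, stayed within 1.5 times under all alternatives. On the share scale, the heat shock lists gave 2 higher and 4 lower genes at an adjusted p under 0.05. The NRF2 and heme lists, with 1 higher and 4 lower, gave 0 and 0 without the filter on low values (19769 genes tested), 2 and 7 with a minimum mean of 1 (5608 genes tested), 5 and 13 at an adjusted p under 0.05, and 0 to 0 higher and 0 to 0 lower with each library left out. The number higher was 0 with scaling by the median, and the number lower was 2 without the trend; the cause was not tested. Labels do not say that replicate numbers pair the libraries, and the differences between replicates 1 and 2 correlated across genes at 0.081 (spike-in) and 0.0758 (share) between groups. With a replicate block, the share scale gave 0 higher and 0 lower of all genes, so 0 and 0 of these lists, and the spike-in scale 11602 higher and 5 lower. Leaving out a library gave 0 to 39 higher and 0 to 3 lower of all genes as shares; fits with a lone library assume that it varies like the other group. Reads within 500 bp of the start were 112 at Hmox1, 94 at Hspa1a and 116 at Hspa1b, and 2 upstream runs at Hmox1 were found with each gap. With 2 technical replicates per group and unknown read depth, differences between sorts or embryos could not be assessed.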

Other observations

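Genes of the integrated stress response, the program in which phosphorylation of eIF2 raises translation of ATF4, had share differences below 0 in most cases, and 1 passed the test. Of 11 listed, 10 were tested, all 10 were higher in high-MYC cells on the spike-in scale (background 97.1%), and as shares 1 was lower and 0 were higher, against 0.514% and 1.77% of all genes. Their median log2 difference as shares was -0.33, against 0.01 for all genes tested, and 9 of 10 were below 0, where 47.0% of all genes were. Gadd45a, a growth arrest gene, fell by 0.48 as a share (limma with Benjamini-Hochberg adjustment, adjusted p = 0.00496), from 1.76 and 1.85 normalized FPK in low-MYC to 2.79 and 2.95 in high-MYC cells, which is a rise on the spike-in scale. This call was lost when any library was left out: adjusted p (limma with Benjamini-Hochberg adjustment) was 0.0332 and 0.0386 without low-MYC replicate 1 and 2, and 0.0566 and 0.0543 without high-MYC replicate 1 and 2, and it was 0.0121 without the filter on low values and 0.0164 with the replicate block. Atf4 had 35.6 and 35.7 normalized FPK in low-MYC and 61.0 and 65.9 in high-MYC cells, a share difference of -0.33. Ppp1r15a, whose product restores eIF2 by dephosphorylation, was at -0.52, Trib3 at -0.47, Chac1 at -0.41, Ddit3, which encodes CHOP, at -0.33, Asns at -0.29, Ddit4 at -0.25 and Sesn2 at -0.10. Herpud1, a gene of endoplasmic reticulum protein degradation, was at 0.13, and Atf3 was too low for the test. The share differences of Hmox1, Hspa1a and Hspa1b, from -1.61 to -1.43, were the 3 lowest of all genes tested. That they lay below every gene on this list follows from this and says nothing about the list.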
